A study of Mus musculus with 17 samples.

Results

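The interleukin 1 family and its receptors were followed here through 9 genes: the agonists Il1a and Il1b, the receptor antagonist Il1rn, the signalling receptor Il1r1, the decoy receptor Il1r2, the accessory receptor chain Il1rap, and the related cytokines Il18 and Il33 with the IL-33 receptor Il1rl1. They were found by their NCBI gene numbers among the 27179 genes of the deposited count tables, and all 9 were present. The libraries were made from bulk RNA of colon digests that the labels call macrophages, from C57BL/6 mice aged 8 weeks. Mice were wild type (WT) or deficient in MCJ, the mitochondrial inner membrane protein encoded by Dnajc15 that restrains respiratory complex I; the labels do not say in which cells the gene is lost or whether mice were pooled. Each genotype was sampled in 3 conditions. Baseline libraries, coded NN, have no treatment named (3 WT, 2 MCJ-deficient). DSS libraries, coded NP, came after 6 days of dextran sulfate sodium, which injures the colonic epithelium (3 and 3). Antibiotic-plus-DSS libraries, coded PP, had 7 days of an unnamed broad-spectrum antibiotic before the same DSS course (3 and 3). There was no group given the antibiotic alone, so the antibiotic was measured only as its addition to DSS. Libraries are named below by the numbers in their labels. The titles also give each library a mouse number of its own within its genotype and condition, but do not say whether a library holds 1 mouse, so p-values measure the spread between these libraries.

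Interleukin 1α and interleukin 1β bind IL-1R1, which then recruits the accessory chain and signals through MyD88 and the IRAK kinases to NF-κB. The antagonist occupies IL-1R1 without signalling, and IL-1R2 binds the agonists but has no signalling domain, so that the family carries its own brakes. IL-1β and IL-18 are made as precursors that inflammasome caspases cleave, whereas IL-33 is a nuclear protein released on cell damage and read by ST2, the product of Il1rl1, with the same accessory chain. In the colon, IL-1β is made largely by myeloid cells and IL-18 largely by epithelium.

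The agonist genes are neighbours on mouse chromosome 2 (build GRCm38), Il1a at chr2:129299609-129310186 and Il1b at chr2:129364569-129371164, both on the minus strand. Il1rn lies on the plus strand of the same chromosome at chr2:24336860-24351491. The receptor genes Il1r2 (chr1:40084692-40125230), Il1r1 (chr1:40222480-40316201) and Il1rl1 (chr1:40404864-40465418) form a cluster on the plus strand of chromosome 1. Il1rap is at chr16:26581509-26730128, Il18 at chr9:50554700-50581841 and Il33 at chr19:29925113-29960718, all on the plus strand. The 250 bases before an annotated start are printed for Il1a, Il1b and Il1rn, the 3 members called higher with MCJ loss after DSS, and for Il18, whose WT conditions were ordered the opposite way. They are RefSeq sequences on GRCm38.p6, read 5′ to 3′ on the strand of the gene, and lie at chr2:129309973-129310222 for Il1a, chr2:129371140-129371389 for Il1b, chr2:24336610-24336859 for the most upstream of the Il1rn starts and chr9:50554450-50554699 for Il18. The GENCODE annotation places 7 exon bases in the Il1rn window and 0 in the other 3, although the RefSeq gene records of Il1a and Il1b begin further upstream, within their windows. Capitals mark matches, on either strand, to the κB consensus, to the C/EBP letters TTGCNNAA, the AP-1 letters TGANTCA, the ETS letters GAGGAA and the TATA letters TATAAA.
Il1a: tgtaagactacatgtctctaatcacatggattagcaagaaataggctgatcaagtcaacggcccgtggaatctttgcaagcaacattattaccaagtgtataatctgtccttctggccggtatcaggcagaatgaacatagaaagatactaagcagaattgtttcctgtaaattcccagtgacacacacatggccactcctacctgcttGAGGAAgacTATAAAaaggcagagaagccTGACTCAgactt
Il1b: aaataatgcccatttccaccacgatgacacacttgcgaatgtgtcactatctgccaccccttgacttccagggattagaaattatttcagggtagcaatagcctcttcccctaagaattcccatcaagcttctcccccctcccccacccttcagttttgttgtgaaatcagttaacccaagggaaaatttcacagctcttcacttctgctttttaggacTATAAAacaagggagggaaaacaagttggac
Il1rn: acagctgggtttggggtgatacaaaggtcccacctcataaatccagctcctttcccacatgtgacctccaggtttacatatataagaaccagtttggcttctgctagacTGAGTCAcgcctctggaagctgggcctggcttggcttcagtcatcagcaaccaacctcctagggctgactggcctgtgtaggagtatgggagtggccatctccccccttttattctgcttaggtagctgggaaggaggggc
Il18: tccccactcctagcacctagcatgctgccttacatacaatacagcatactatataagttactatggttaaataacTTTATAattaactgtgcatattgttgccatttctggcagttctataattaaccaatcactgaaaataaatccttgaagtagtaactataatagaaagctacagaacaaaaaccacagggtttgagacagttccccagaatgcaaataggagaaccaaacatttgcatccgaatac
Positions count back from -1, the base before the start. In the Il1a window the TATA letters began at -32, as they did at -31 in the Il1b window. The Il1a window also held the ETS letters at -41 and the AP-1 letters at -12, and no match overlapped another. The Il1rn window held the AP-1 letters at -141, and the Il18 window the TATA letters on the other strand at -175. Such letters are common: of 32851 mouse promoter windows of the same length, 12.37% held the TATA, 23.25% the ETS, 6.75% the AP-1, 9.56% the C/EBP and 7.25% the κB letters. The κB and C/EBP letters were not found in these 4 windows. A match describes letters in the window and was not tested as a binding site.

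Library totals ran from 29194744 to 37083344 counts, of which 23.12% to 50.37% fell on mitochondrially encoded genes. Dnajc15 had 359 to 1534 counts in WT and 21 to 121 in MCJ-deficient libraries, with no overlap, which matches the labels. The label "macrophages" was not borne out at baseline, where the defining macrophage gene Adgre1 had 0 to 2 counts in WT and 10 to 30 in MCJ-deficient libraries, against 39554 to 66150 counts of the epithelial gene Epcam. Adgre1 had 48 to 99 counts in WT and 372 to 1449 in MCJ-deficient libraries after DSS, and 631 to 4998 and 1333 to 3199 with the antibiotic. Epcam had 48022 to 57661 counts in WT and 48179 to 56661 in MCJ-deficient libraries after DSS. With the antibiotic it had 21533 to 41834 and 22526 to 37821. Epcam thus exceeded Adgre1 in every group, so libraries of all 3 conditions held much epithelial RNA. The female-expressed transcript Xist had 1100 to 7950 counts in 4 of the 5 baseline libraries and 3822 in the MCJ-deficient DSS library 21, and at most 9 in the other 12 libraries. The Y-linked gene Ddx3y had 241 to 2691 counts in all 12 libraries with DSS, library 21 included, and in WT baseline library 3 (375 counts), so libraries differ by sex along with treatment, and library 21 holds both transcripts. In bulk RNA, fewer cells of a type and less RNA per cell cannot be told apart.

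Il1b, the principal secreted agonist of the family, was near the bottom of its range at baseline and at the top with the antibiotic. In CPM, which are counts scaled to library size after edgeR's TMM normalization, WT libraries 1, 2 and 3 at baseline had 0.819, 1.22 and 2.98, and MCJ-deficient libraries 13 and 14 had 1.21 and 1.95. After DSS, WT libraries 7, 8 and 9 had 85.9, 101 and 66.2 CPM, and MCJ-deficient libraries 19, 20 and 21 had 253, 462 and 347. With the antibiotic before DSS, Il1b was at 2800, 435 and 1855 CPM in WT libraries 10, 11 and 12 and at 1609, 3484 and 1179 in MCJ-deficient libraries 22, 23 and 24. The 3 conditions did not overlap in WT, the genotypes did not overlap after DSS, and they did overlap at baseline and with the antibiotic. WT library 11 was the lowest antibiotic library, close to the MCJ-deficient DSS libraries.

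Il1a, the agonist that is active without cleavage and is stored in many cell types, had the same order of groups. Baseline levels were 2.41, 0.438 and 0.497 CPM in WT and 0.316 and 0.643 in MCJ-deficient libraries, from 9 to 59 counts. After DSS they were 13.4, 11.9 and 9.90 CPM in WT and 68.0, 182 and 99.1 in MCJ-deficient libraries. With the antibiotic they were 1138, 101 and 688 CPM in WT and 1315, 1777 and 588 in MCJ-deficient libraries. The lowest MCJ-deficient DSS library was above every WT DSS library. Group means from the highest were 1226 ± 599 CPM (SD, n = 3) in antibiotic MCJ-deficient, 642 ± 520 in antibiotic WT, 116 ± 58.9 in DSS MCJ-deficient and 11.7 ± 1.76 in DSS WT libraries. The first pair of neighbours in that order overlapped, as did the second pair, and the third did not.

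Il1rn, which encodes the receptor antagonist, was already present at baseline, unlike the agonists. Its levels there were 199, 118 and 80.0 CPM in WT and 105 and 106 in MCJ-deficient libraries. After DSS they were 198, 214 and 204 CPM in WT and 350, 493 and 388 in MCJ-deficient libraries. With the antibiotic they were 2158, 362 and 1859 CPM in WT and 1369, 5869 and 992 in MCJ-deficient libraries. WT libraries overlapped between baseline and DSS, the genotypes separated after DSS, and MCJ-deficient library 23 stood far above all others.

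**Figure D1:**
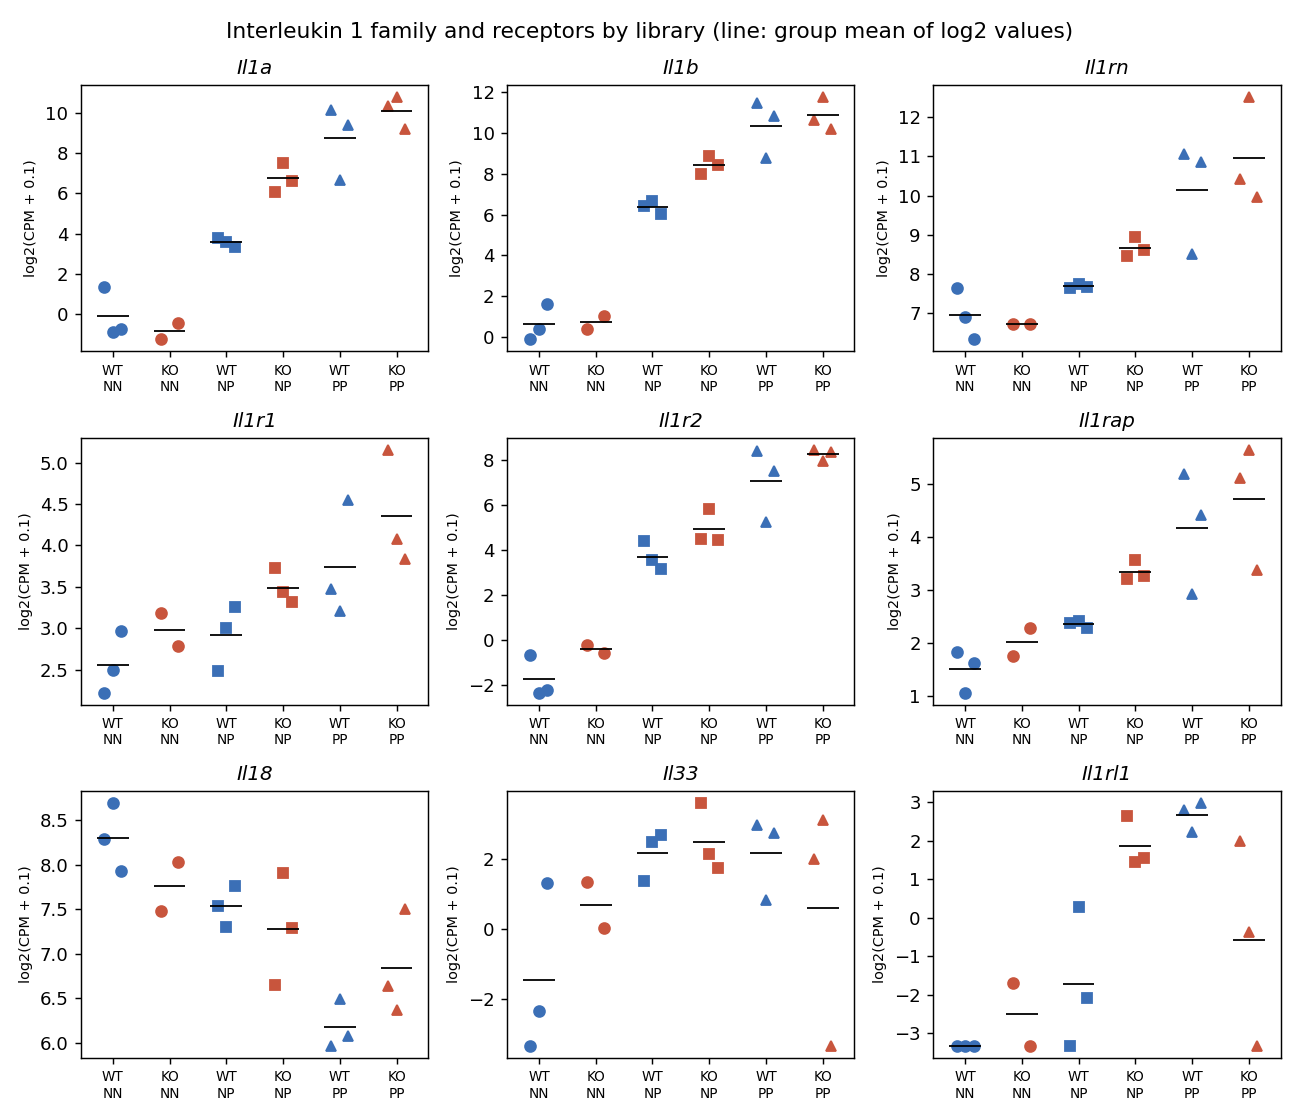
Levels of the 9 genes in each library, as log2(CPM + 0.1), with WT in blue and MCJ-deficient (KO) in red, circles for baseline (NN), squares for DSS (NP) and triangles for antibiotic plus DSS (PP); lines are group means. Il1a, Il1b, Il1rn, Il1r2 and Il1rap are ordered from baseline to antibiotic plus DSS with MCJ-deficient above WT after DSS, whereas Il18 is ordered the other way.

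The balance of antagonist to agonist transcripts differed between groups. The count ratio of Il1rn to Il1a plus Il1b within a library is not corrected for length, so only its change between groups is read. It was 61.0, 70.4 and 22.9 in WT and 68.2 and 40.5 in MCJ-deficient libraries at baseline. After DSS it was 2.00, 1.90 and 2.68 in WT and 1.09, 0.766 and 0.870 in MCJ-deficient libraries, and the genotypes did not overlap. With the antibiotic it was 0.548, 0.676 and 0.731 in WT and 0.468, 1.12 and 0.561 in MCJ-deficient libraries, and these overlapped. On the log2 scale the mean ratio was 5.53 ± 0.88 (SD, n = 3) in WT at baseline, 1.11 ± 0.27 after DSS and -0.63 ± 0.22 with the antibiotic. The ratio is a description over chosen genes and was given no test.

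Il1r2, the decoy receptor expressed by neutrophils and macrophages, had the widest range of the receptors. At baseline it was at 0.532, 0.0973 and 0.115 CPM in WT (13, 2 and 3 counts) and at 0.763 and 0.566 in MCJ-deficient libraries. After DSS it was at 20.9, 11.7 and 8.76 CPM in WT and 22.3, 56.7 and 21.5 in MCJ-deficient libraries. With the antibiotic it was at 339, 38.0 and 186 CPM in WT and 349, 253 and 335 in MCJ-deficient libraries. Within each genotype the 3 conditions did not overlap. The genotypes separated after DSS only narrowly, by 20.9 against 21.5 CPM.

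Il1r1, the signalling receptor, which stromal and epithelial cells also carry, covered a far narrower range. Its levels were 4.58, 5.54 and 7.72 CPM in WT and 9.02 and 6.79 in MCJ-deficient libraries at baseline. After DSS they were 5.51, 7.96 and 9.47 CPM in WT and 13.1, 10.7 and 9.88 in MCJ-deficient libraries. With the antibiotic they were 11.0, 9.12 and 23.2 CPM in WT and 35.4, 16.7 and 14.2 in MCJ-deficient libraries. Only DSS MCJ-deficient and baseline MCJ-deficient libraries were neighbours in the order of means without overlap. The log2 count ratio of Il1r2 to Il1r1 went from -4.81 ± 1.53 in WT at baseline (SD, n = 3) to 0.79 ± 1.04 after DSS and 3.33 ± 1.47 with the antibiotic. In MCJ-deficient libraries it was -3.55 ± 0.009 (n = 2), 1.43 ± 0.86 (n = 3) and 3.92 ± 0.63 (n = 3), and the genotypes overlapped in all 3 conditions.

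**Figure D2:**
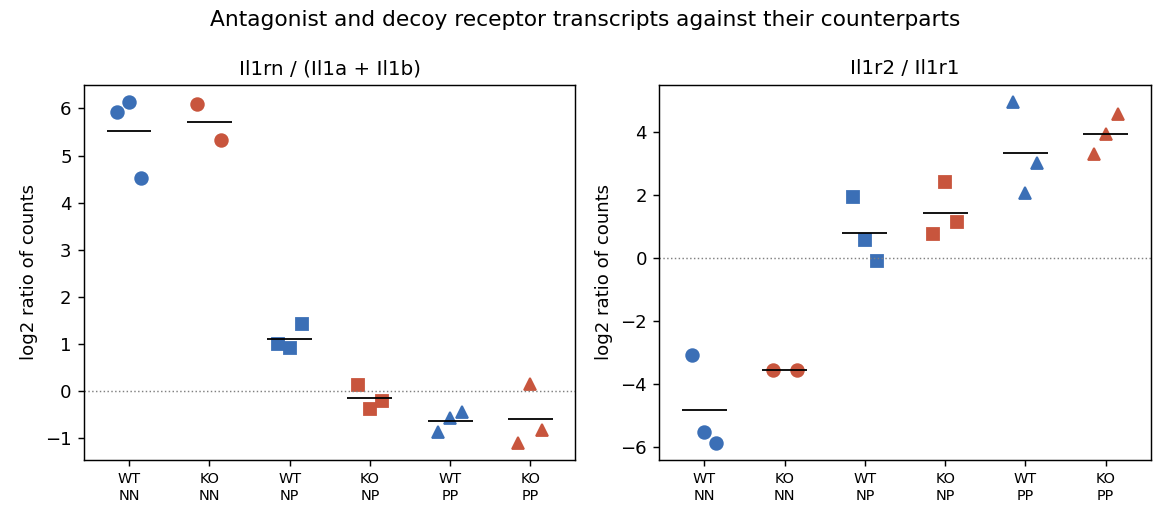
Log2 ratio of counts within each library, Il1rn to Il1a plus Il1b at left and Il1r2 to Il1r1 at right, with group means as lines, WT in blue and MCJ-deficient (KO) in red. The antagonist ratio is highest at baseline and separates the genotypes after DSS, while the decoy ratio is lowest at baseline.

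Il1rap, the accessory chain shared by the IL-1, IL-33 and IL-36 receptors, was at 3.44, 1.99 and 2.98 CPM in WT and 3.29 and 4.78 in MCJ-deficient libraries at baseline. After DSS it was at 5.09, 5.22 and 4.77 CPM in WT and 9.15, 11.9 and 9.53 in MCJ-deficient libraries. With the antibiotic it was at 36.4, 7.47 and 21.2 CPM in WT and 34.8, 49.9 and 10.3 in MCJ-deficient libraries. The genotypes separated after DSS, with no WT library above 5.22 CPM and no MCJ-deficient library below 9.15.

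Il18, the epithelial cytokine of the family, ran against the others. Its levels were 312, 413 and 243 CPM in WT and 179 and 262 in MCJ-deficient libraries at baseline. After DSS they were 186, 158 and 217 CPM in WT and 101, 239 and 156 in MCJ-deficient libraries. With the antibiotic they were 62.6, 89.9 and 67.5 CPM in WT and 99.95, 82.5 and 182 in MCJ-deficient libraries. WT conditions did not overlap, baseline being highest, while every pair of neighbouring groups in the order of all 6 means overlapped. The summed level of 12 colonocyte markers had the same order of conditions, 22573 to 24141 CPM in WT at baseline, 12664 to 16790 after DSS and 8382 to 12613 with the antibiotic. Their part in the Il18 result was not tested.

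Il33, the nuclear alarmin of stromal and epithelial cells, stayed low. It was listed at 0, 0.0973 and 2.37 CPM in WT (0, 2 and 62 counts) and 2.45 and 0.926 in MCJ-deficient libraries at baseline. After DSS it was at 2.48, 5.48 and 6.32 CPM in WT and 11.9, 4.35 and 3.26 in MCJ-deficient libraries. With the antibiotic it was at 7.72, 1.68 and 6.56 CPM in WT and 3.87, 8.61 and 0 in MCJ-deficient libraries. All neighbouring groups overlapped in the order of means, and the count of 0 in library 24 allows up to 0.0954 CPM, for counting error only.

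Il1rl1, whose product ST2 is found on mast cells, regulatory T cells and type 2 lymphoid cells, was detected mainly after DSS. It had 0 counts in all 3 WT baseline libraries, which allows 0.0422 CPM over the group at a limit of 3 counts, and 8 and 0 counts in MCJ-deficient baseline libraries 13 and 14. After DSS it was at 0, 1.11 and 0.137 CPM in WT and 6.12, 2.61 and 2.80 in MCJ-deficient libraries. With the antibiotic it was at 6.89, 4.55 and 7.71 CPM in WT and 3.87, 0.666 and 0 in MCJ-deficient libraries. MCJ-deficient libraries were thus all above WT after DSS and all below WT with the antibiotic. The 8 mast-cell markers summed to 7.88 to 18.28 CPM in WT and 8.4 to 20.04 in MCJ-deficient libraries after DSS, and to 10.73 to 37.9 and 7.59 to 15.01 with the antibiotic, overlapping between genotypes in both. Of these markers Ms4a2, which encodes a chain of the high-affinity IgE receptor, was at 0 in all 17 libraries, and it was the only one at 0 in libraries 7, 9, 19 and 23. The 4 eosinophil markers summed to 0.35 to 1.95 CPM in WT and 5.51 to 28.37 in MCJ-deficient libraries after DSS, without overlap. With the antibiotic they were at 7.7 to 224.99 and 10.57 to 11.78 CPM, which overlapped. The 9 T-cell markers overlapped in both, at 4.45 to 6.12 and 4.94 to 6.23 CPM after DSS and 5.82 to 17.84 and 15.83 to 20.42 with the antibiotic. The part of any of these markers in the Il1rl1 levels was not tested.

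Per exon length, the leading family transcript changed between groups. Il18 was highest at baseline, at 313 RPKM (CPM per kilobase of exon) in WT and 214 in MCJ-deficient libraries, followed by Il1rn at 23.9 and 19.03. After DSS, Il18 still led in WT at 181 RPKM with Il1b at 44.2, but Il1b led in MCJ-deficient libraries at 185 RPKM with Il18 at 161. With the antibiotic, Il1b led at 890 RPKM in WT and 1096 in MCJ-deficient libraries, followed by Il1a at 325 and 621 and Il1rn at 264 and 496. Il1r1, Il1rap, Il33 and Il1rl1 had mean levels between 0 and 3.48 RPKM in all 6 groups. These lengths join all annotated exons of a gene and do not separate isoforms.

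**Figure D3:**
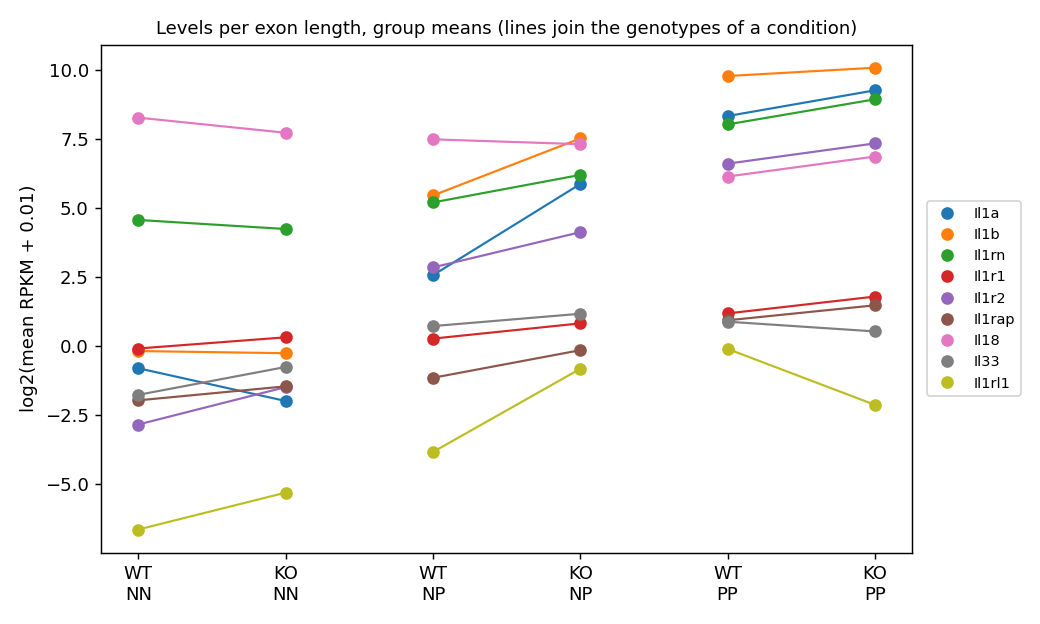
Group mean level of each gene per exon length, as log2(mean RPKM + 0.01), for WT and MCJ-deficient (KO) libraries of the 3 conditions, with lines joining the genotypes of a condition. Il18 is highest at baseline and Il1b with the antibiotic, and Il1rl1 is lowest in each group.

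The first comparison asked what MCJ loss did within each condition. After DSS, both agonists and the antagonist rose in MCJ-deficient libraries. Il1a was higher by 3.31 on the log2 scale (SE 0.36), a 9.91-fold difference, with an adjusted p of 0.00275 in edgeR's quasi-likelihood test with Benjamini-Hochberg adjustment over all 14452 genes tested. Il1b was higher by 2.07 (SE 0.27, 4.20-fold, adjusted p = 0.00473) and Il1rn by 1.00 (SE 0.21, 2.00-fold, adjusted p = 0.0478). These were 3 of 9 members, where 0.983% of all genes tested were called higher. The median over the 9 members was 1.02 on the log2 scale, against 0.03 over all genes. In 7 of the 9 members every MCJ-deficient library lay above every WT library, which held for 9.8% of all genes. At an unadjusted p under 0.05 there were 6 of 9, against 9.24% of all genes.

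Among the receptors after DSS, Il1rl1 differed by 3.19 on the log2 scale (SE 1.07, adjusted p = 0.318), Il1r2 by 1.28 (SE 0.42, adjusted p = 0.312), Il1rap by 1.02 (SE 0.31, adjusted p = 0.234) and Il1r1 by 0.56 (SE 0.31, adjusted p = 0.669). None of the 4 passed the threshold in this test, although DESeq2 called Il1rl1 (adjusted p = 0.0342) and edgeR without the count filter called Il1r2 (adjusted p = 0.0244) and Il1rl1 (adjusted p = 0.0313). Il18 (-0.17, SE 0.29) and Il33 (0.45, SE 0.52) did not pass in either tool. The agonist calls held when any of the 6 libraries was left out, with adjusted p at most 0.0439, but ended in the fit of all 17 libraries, where the adjusted p was 0.211 for Il1a and 0.341 for Il1b. The Il1rn call ended there too (adjusted p = 1.0), with RLE scaling (0.0623), and without library 7 (0.204), 8 (0.18), 9 (0.0683), 20 (0.341) or 21 (0.142), the last being the library that held Xist and Ddx3y together.

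In the same libraries the 12 macrophage markers summed to 63.1 to 103.73 CPM in WT and to 294.27 to 1160.61 in MCJ-deficient libraries, with no overlap. Only in WT were any of them at 0 (Cx3cr1 and Cd163 in library 8). Lyz2 carried much of this sum, with a mean of 47.74 CPM in WT and 473.3 in MCJ-deficient libraries, against 1.77 and 25.21 for Adgre1. The 12 neutrophil markers summed to 409.4 to 699.59 CPM in WT and 289.17 to 593.92 in MCJ-deficient libraries, which overlapped. As a description made after the values were seen, Il1b per macrophage-marker CPM was 0.829 to 1.60 in WT and 0.398 to 0.859 in MCJ-deficient libraries. Il1a per macrophage-marker CPM was 0.129 to 0.189 in WT and 0.157 to 0.231 in MCJ-deficient libraries. Both ratios overlapped between the genotypes. Il1rn per macrophage-marker CPM was 1.91 to 3.39 in WT and 0.425 to 1.19 in MCJ-deficient libraries, lower in MCJ-deficient libraries with no overlap. Per neutrophil-marker CPM, Il1rn was instead higher in them without overlap, at 0.291 to 0.522 in WT and 0.7415 to 1.34 in MCJ-deficient libraries. Per monocyte-marker CPM it was also higher without overlap, at 0.115 to 0.222 and 0.371 to 0.506. The direction for Il1rn thus depended on the marker list. Per neutrophil-marker CPM, Il1b was 0.0947 to 0.246 in WT and 0.536 to 1.199 in MCJ-deficient libraries. Per monocyte-marker CPM it was 0.0483 to 0.104 and 0.347 to 0.391, with no overlap in either. Il1a per neutrophil-marker CPM was 0.0142 to 0.0291 and 0.144 to 0.343, also without overlap. The monocyte markers summed to 1238.59 to 2063.04 CPM in WT at baseline, with Ccr2 at 0 in each library, and to 964.58 to 1729.05 in WT after DSS. Their sum may therefore not follow monocytes. Of 14 marker lists, 4 were higher in MCJ-deficient libraries without overlap and 0 were lower. Besides macrophages these were dendritic cells (3.45 to 4.09 CPM in WT, 5.99 to 15.7 in MCJ-deficient libraries), eosinophils (0.35 to 1.95 and 5.51 to 28.37) and B and plasma cells (3.42 to 9.24 and 20.24 to 321.47). The part of the marker levels in the MCJ result was not tested.

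**Figure D4:**
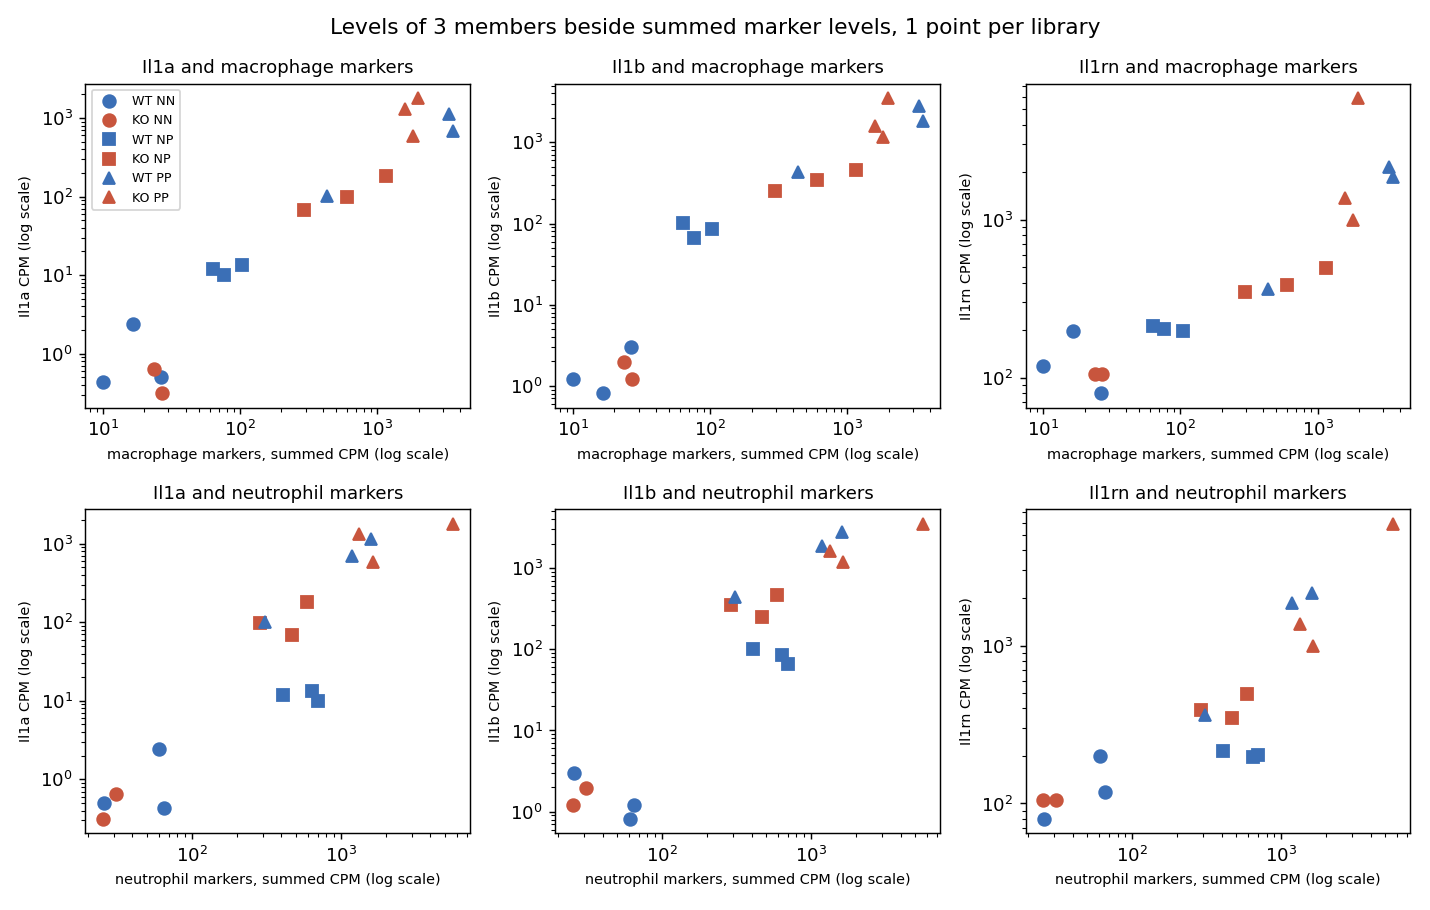
CPM of Il1a, Il1b and Il1rn in each library against the summed CPM of 12 macrophage markers (top) or 12 neutrophil markers (bottom), both axes on a log scale, with WT in blue and MCJ-deficient (KO) in red. After DSS (squares) the genotypes are apart along the macrophage axis and overlap along the neutrophil axis.

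At baseline, 0 of the 8 members tested were called by edgeR and 0 had an unadjusted p under 0.05, where 0% of 13559 genes were called by edgeR and 8.29% had an unadjusted p under 0.05. DESeq2 gave an adjusted p for 2 of the 8, Il1rn (0.493) and Il18 (0.137), and called neither. Of all 13559 genes it called 296. The largest estimates had wide errors, with Il1r2 at 1.36 (SE 1.71) and Il1a at -1.27 (SE 1.75) on the log2 scale. Il1rn was at -0.38 (SE 0.37), and Il18 at -0.60 (SE 0.29, adjusted p = 0.674). Dnajc15 itself differed by -3.76 (SE 0.55) with an adjusted p of 0.326, so this test of 3 against 2 libraries did not call the deleted gene. The TMM factors over all 17 libraries, used for CPM, were 0.699 to 0.837 in WT and 1.161 to 1.27 in MCJ-deficient baseline libraries. The baseline test used factors computed within its own libraries, which are not given here.

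With the antibiotic before DSS, 0 of 9 members were called by edgeR, 0 by DESeq2 and 0 at an unadjusted p under 0.05, where 0% of 14556 genes were called by edgeR and 5.21% had an unadjusted p under 0.05. DESeq2 called 87 of the 14556 genes. Il1a was at 0.95 (SE 0.76), Il1b at 0.30 (SE 0.65) and Il1rn at 0.90 (SE 0.79) on the log2 scale. Il1rl1 was at -2.02 (SE 1.30) and Il18 at 0.76 (SE 0.37). Dnajc15 was not called here either (-4.15, SE 0.76, adjusted p = 0.791). WT library 11 had macrophage markers at 432.66 CPM, against 3324.35 and 3544.82 in libraries 10 and 12. It was the lowest WT antibiotic library for every member except Il18, for which it was the highest. Without it Il1b was at -0.15, and without MCJ-deficient library 23 Il1b was at -0.31 and Il1rn at -0.33, all uncalled.

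Whether the MCJ difference itself changed between conditions was tested in 1 fit of all 17 libraries. The difference for Il1a was larger after DSS than at baseline by 4.53 (SE 1.15, unadjusted p = 0.00104, adjusted p = 0.366), and for Il1b by 2.16 (SE 0.87, unadjusted p = 0.0234, adjusted p = 0.844). From DSS to antibiotic plus DSS it changed by -2.38 for Il1a (SE 0.95, unadjusted p = 0.0229), -1.77 for Il1b (SE 0.77, unadjusted p = 0.0347) and -5.27 for Il1rl1 (SE 2.25, unadjusted p = 0.0333), with adjusted p from 0.872 to 0.931. edgeR called 0 of 9 members in either test (2 and 3 at an unadjusted p under 0.05), where 0% of 16958 genes were called and 5.6% and 5.22% had an unadjusted p under 0.05. DESeq2 called 1 (Il1a after DSS against baseline, adjusted p = 0.0109) and 0, where it called 141 and 81 of 16958 genes. A dependence of the MCJ effect on condition was therefore not established for any member by the edgeR test.

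The second comparison set DSS against baseline in each genotype. In WT, Il1b rose by 5.64 on the log2 scale (SE 0.67, 50.02-fold, adjusted p = 0.000249), Il1r2 by 5.76 (SE 0.79, 54.1-fold, adjusted p = 0.00087) and Il1a by 3.38 (SE 0.76, 10.4-fold, adjusted p = 0.023). These were 3 of 9 members, where 2.25% of 16958 genes were called higher. Il1rl1 was at least 10.09-fold higher, from 48 counts against the limit of 3 counts over the WT baseline group, without passing edgeR's test, whereas DESeq2 called it (adjusted p = 0.0426). Il18 was at -0.79 (SE 0.34, adjusted p = 0.266), Il1rn at 0.63 (SE 0.59), Il1rap at 0.84 (SE 0.53), Il1r1 at 0.36 (SE 0.43) and Il33 at 2.52 (SE 1.45). The Il1a call ended in the fit of the 2 groups alone (adjusted p = 0.187) and without library 2 (0.0911), 3 (0.0578), 7 (0.0569) or 8 (0.0505).

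In MCJ-deficient libraries the same 3 members rose, Il1a by 7.91 (SE 1.11, adjusted p = 0.00102), Il1b by 7.80 (SE 0.89, adjusted p = 0.00026) and Il1r2 by 5.65 (SE 0.88, adjusted p = 0.00166), where 2.04% of all genes were called higher. Il1rn was at 1.96 (SE 0.70, adjusted p = 0.287) and was called by DESeq2 (adjusted p = 0.0257) and in the fit of the 2 groups alone (adjusted p = 0.000356). Il1rl1 was at 5.15 (SE 2.18), Il33 at 1.95 (SE 1.63), Il1rap at 1.33 (SE 0.61), Il1r1 at 0.51 (SE 0.48) and Il18 at -0.41 (SE 0.37), none of them called. In the fit of the 2 groups alone Il1rl1 (adjusted p = 0.0119) and Il1rap (adjusted p = 0.0315) passed, and DESeq2 called Il1rl1 (adjusted p = 0.0494). The Il1r2 call ended without library 13 (adjusted p = 0.0542). Both MCJ-deficient baseline libraries were high in Xist and the DSS libraries, apart from 21, were not, so sex and DSS cannot be told apart in this genotype. In WT, baseline library 3 was low in Xist like the DSS libraries, whereas baseline libraries 1 and 2 were not. Library 3 had 0.497 CPM of Il1a, 2.98 of Il1b and 0.115 of Il1r2, below all WT DSS libraries. It is a single library, and the part of sex in the WT result was not tested. Macrophage markers summed to 9.97 to 26.74 CPM in the 5 baseline libraries and neutrophil markers to 25.3 to 65.51 CPM, below every DSS library, with 8 of the 14 marker lists higher after DSS without overlap in WT and 11 in MCJ-deficient libraries. Colonocyte markers were lower without overlap in WT, and the part of the markers in the DSS result was not tested.

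The third comparison set antibiotic plus DSS against DSS alone. In WT, 5 members rose and 1 fell, where 3.49% of 16958 genes were called higher and 0.926% lower. Il1a rose by 5.77 (SE 0.82, 54.7-fold, adjusted p = 0.00122), Il1b by 4.33 (SE 0.62, 20.1-fold, adjusted p = 0.00122) and Il1r2 by 3.77 (SE 0.65, 13.6-fold, adjusted p = 0.00317). Il1rn rose by 2.83 (SE 0.63, adjusted p = 0.0152) and Il1rap by 2.11 (SE 0.54, adjusted p = 0.0332), while Il18 fell by 1.35 (SE 0.34, adjusted p = 0.0327). Il1rl1 was at 3.93 (SE 1.69, adjusted p = 0.246), Il1r1 at 0.92 (SE 0.43, adjusted p = 0.295) and Il33 at 0.16 (SE 1.35). The calls of Il1a, Il1b and Il1r2 held when any of the 6 libraries was left out. Those of Il1rn, Il1rap and Il18 held only without library 11 and ended without library 7, 8, 9, 10 or 12, with adjusted p from 0.0584 to 0.0882 for Il1rn, from 0.0856 to 0.266 for Il1rap and from 0.0592 to 0.188 for Il18. The Il1rap call also ended in the fit of the 2 groups alone (adjusted p = 0.0539). In the same WT libraries macrophage markers summed to 63.1 to 103.73 CPM after DSS and to 432.66 to 3544.82 with the antibiotic. Dendritic, eosinophil, B and plasma, and red blood cell markers were also higher without overlap, colonocyte markers were lower (12664 to 16790 against 8382 to 12613 CPM), and neutrophil markers overlapped (409.4 to 699.59 against 310.7 to 1606.52 CPM). The part of these markers in the WT result was not tested.

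In MCJ-deficient libraries 4 members rose, where 1.34% of genes were called higher. Il1a rose by 3.40 (SE 0.73, adjusted p = 0.0344), Il1b by 2.56 (SE 0.57, adjusted p = 0.0386), Il1r2 by 3.22 (SE 0.63, adjusted p = 0.0237) and Il1rn by 2.74 (SE 0.62, adjusted p = 0.0406). Il1rap was at 1.64 (SE 0.53, adjusted p = 0.13), Il1r1 at 0.98 (SE 0.43), Il18 at -0.45 (SE 0.34), Il33 at -0.64 (SE 1.36) and Il1rl1 at -1.34 (SE 1.52). DESeq2 called Il1rap (adjusted p = 0.0338), as did edgeR without library 24 (adjusted p = 0.0286). All 4 calls ended without library 19, 20 or 21, with adjusted p from 0.0503 to 0.21. Those of Il1a and Il1b ended without library 22 (0.0648 and 0.0633) or 23 (0.0973 and 0.159) and that of Il1rn without library 23 (0.221). The antibiotic and DSS-alone libraries stand in different deposited tables, and macrophage markers summed to 1586.64 to 1972.73 CPM in the antibiotic MCJ-deficient libraries, above the DSS ones. Neutrophil markers summed to 1335.05 to 5644.38 CPM there, with library 23 highest. Of the 14 marker lists 6 were higher than after DSS without overlap and 1, colonocytes, was lower, and the part of any of them was not tested. The MCJ effect after DSS and the DSS and antibiotic comparisons share the DSS libraries, so their values for a member are not independent.

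**Figure D5:**
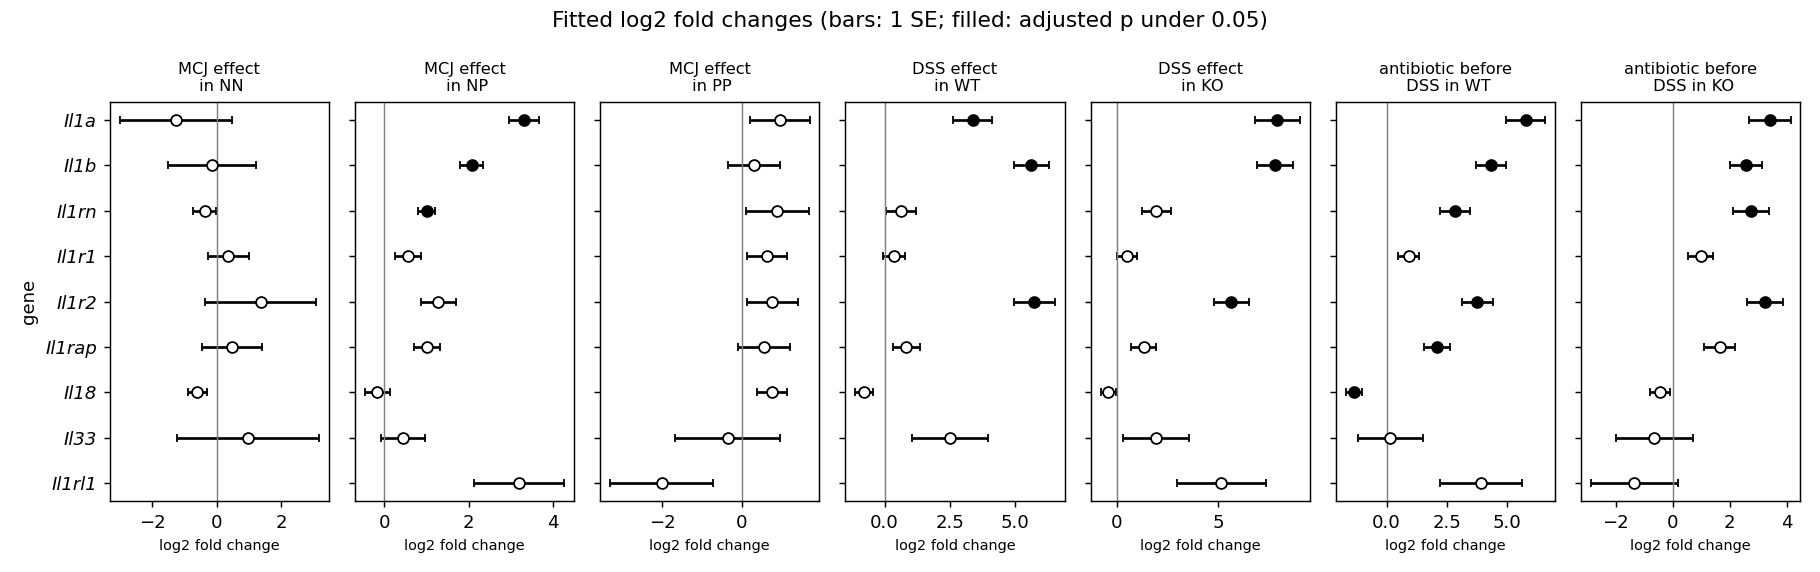
Fitted log2 fold changes of the 9 genes in 7 comparisons, with bars of 1 SE and filled points at an adjusted p under 0.05 in edgeR. Il1rl1 has no point for MCJ loss at baseline, where it was below the count filter, or for DSS in WT, where all baseline libraries had 0 counts. Il1a and Il1b are filled in 5 panels each.

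Around these members, 12 other ligands and receptors of the family were listed, of which 3 to 7 passed the count filter. MCJ loss called 0 of 3 at baseline, 0 of 5 after DSS and 0 of 7 with the antibiotic in edgeR. At an unadjusted p under 0.05 there were 0, 1 and 1, against 8.29%, 9.24% and 5.21% of all genes. DESeq2 gave none of the 3 an adjusted p at baseline and called 0 in the other conditions, where it called 361 of 14452 and 87 of 14556 genes. DSS called 2 of 7 higher in WT, where 2.25% of all genes were. These were Il36g, an epithelial IL-36 agonist that the annotation lists as Il1f9, with 529 counts against 3 (ratio 111.25 after scaling, exact counting interval 37.86 to 541.19), and Il18bp, which encodes the secreted IL-18 binding protein (4.63, SE 0.97, adjusted p = 0.0159). In MCJ-deficient libraries Il36g alone was called higher after DSS (918 counts against 2, ratio 302.06, interval 83.38 to 2497.99), and again with the antibiotic (3.36, SE 0.66, adjusted p = 0.0237). This was 1 of 7 in each comparison, where 2.04% and 1.34% of all genes were called higher. In WT the antibiotic called 0 of 7 in edgeR, with 3 at an unadjusted p under 0.05 (16.6% of all genes). DESeq2 called 3 higher there, against 1040 of 16958 genes. The median of the list in WT after DSS was 0.0 as fitted and 2.70 with genes at 0 counts set to their bounds, so it gives no direction.

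Of 15 genes that process or release family cytokines, 10 to 13 were tested, and edgeR called Nlrp3, Mefv and Ninj1 in 1 or more of these comparisons. Nlrp3, the sensor that activates caspase-1, rose after DSS by 6.73 in WT (SE 0.73, adjusted p = 0.000114) and by 6.70 in MCJ-deficient libraries (SE 0.77, adjusted p = 0.00026). These folds rest on few counts, since at baseline Nlrp3 had 1 to 2 a library in WT and 5 to 6 in MCJ-deficient libraries. It rose again with the antibiotic, by 3.71 in WT (SE 0.51, adjusted p = 0.00122) and by 3.01 in MCJ-deficient libraries (SE 0.50, adjusted p = 0.00953). Mefv, which encodes the sensor pyrin, was the only 1 of 12 called by edgeR for MCJ loss after DSS, against 0.983% of all genes called higher. It rose there by 2.52 (SE 0.44, adjusted p = 0.0212). DESeq2 also called Ninj1 in that comparison (1.16, adjusted p = 0.0209). In edgeR 4 of 12 had an unadjusted p under 0.05, against 9.24% of all genes. After DSS Mefv had 220 counts in WT against 2 (ratio 69.4, counting interval 18.99 to 576.65). It rose by 6.72 in MCJ-deficient libraries (SE 1.12, adjusted p = 0.00242), from 0 to 8 counts a library at baseline. Mefv also rose with the antibiotic in WT (4.53, SE 0.77, adjusted p = 0.00313), together with Ninj1, which drives rupture of dying cells (2.84, SE 0.54, adjusted p = 0.00565). By edgeR, DSS called 2 of 13 higher in each genotype, against 2.25% and 2.04% of all genes, and the antibiotic 3 of 13 in WT and 1 of 13 in MCJ-deficient libraries, against 3.49% and 1.34%. MCJ loss called 0 of 10 at baseline and 0 of 13 with the antibiotic in edgeR. At an unadjusted p under 0.05 there were 1 and 1, against 8.29% and 5.21% of all genes. At baseline this was Pycard, the inflammasome adaptor (-0.79, SE 0.27, adjusted p = 0.572), which DESeq2 called lower (-0.83, adjusted p = 0.0395) among the 5 of 10 genes it gave an adjusted p. DESeq2 called 275 of 13559 genes lower there. edgeR called 0 of the genes tested lower in the 7 comparisons.

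All 16 genes that carry the signal from the receptor were tested. edgeR called 0 for MCJ loss in any condition. At baseline, after DSS and with the antibiotic, 0, 2 and 1 had an unadjusted p under 0.05, against 8.29%, 9.24% and 5.21% of all genes. DESeq2 called 0 after DSS and with the antibiotic, where it called 361 of 14452 and 87 of 14556 genes, and at baseline gave none an adjusted p. For DSS, edgeR called 0 in either genotype, and DESeq2 called 2 and 1 higher, against 890 and 771 of 16958 genes. There 3 and 1 had an unadjusted p under 0.05 in edgeR, against 15.9% and 8.27% of all genes. With the antibiotic, 2 rose in WT and 3 in MCJ-deficient libraries, against 3.49% and 1.34% of all genes called higher. There 7 and 8 had an unadjusted p under 0.05, against 16.6% and 14.3% of all genes. DESeq2 called 4 and 6 higher, against 1040 and 686 of 16958 genes. The list median was 0.64 in WT and 0.80 in MCJ-deficient libraries, against 0.06 and 0.01 over all genes. Irak3, the inhibitory kinase of the pathway, rose by 3.32 in WT (SE 0.75, adjusted p = 0.0176) and 3.49 in MCJ-deficient libraries (SE 0.75, adjusted p = 0.0344). Peli1, a ubiquitin ligase acting on the IRAK complex, rose by 1.40 (SE 0.34, adjusted p = 0.0249) and 1.79 (SE 0.34, adjusted p = 0.0202), and Tifa, a TRAF6 adaptor, by 1.19 in MCJ-deficient libraries (SE 0.28, adjusted p = 0.0422).

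Of 18 genes known to be induced by interleukin 1, 3 rose and 1 fell with MCJ loss after DSS, where 0.983% of all genes were called higher, and the list median was 0.26 on the log2 scale against 0.03 over all genes. Mmp13, a collagenase, rose by 3.06 (SE 0.37, adjusted p = 0.00357), Ptgs2, the inducible cyclooxygenase, by 2.84 (SE 0.32, adjusted p = 0.00275) and Cxcl2, a neutrophil chemokine, by 1.81 (SE 0.34, adjusted p = 0.0299). Ccl20, an epithelial chemokine named here after its values were seen, fell by 2.45 (SE 0.47, adjusted p = 0.0311), where 0.0208% of all genes were called lower. DSS called 8 of 18 higher in WT, with a list median of 2.86 when genes at 3 or fewer counts are set to their bounds or ratios, and 9 of 18 in MCJ-deficient libraries, with 4.19, against 2.25% and 2.04% of all genes called higher. Among them Cxcl2 rose by 5.13 (SE 0.74, adjusted p = 0.00129) and 6.40 (SE 0.94, adjusted p = 0.00123), and Mmp13 by 5.78 (SE 0.90, adjusted p = 0.00222) and 7.57 (SE 1.0, adjusted p = 0.000876). At baseline Mmp13 had only 1 to 3 counts a library in WT and 2 to 14 in MCJ-deficient libraries. The antibiotic called 7 of 18 higher in WT, Ptgs2 by 4.65 (SE 0.82, adjusted p = 0.00345), and 5 of 18 in MCJ-deficient libraries, Saa3 by 5.14 (SE 0.94, adjusted p = 0.0168) and Lcn2 by 4.59 (SE 0.91, adjusted p = 0.0237). The shares of all genes called higher were 3.49% and 1.34%. Levels with the antibiotic spread widely, with Ptgs2 at 4222 to 40986 counts in WT. In MCJ-deficient libraries Saa3 was at 7106 ± 8782 CPM (SD, 37383 to 645017 counts) and Lcn2 at 1119 ± 1295 (6695 to 97618 counts). MCJ loss called 0 of 13 at baseline and 0 of 18 with the antibiotic in edgeR. At an unadjusted p under 0.05 there were 1 and 4, against 8.29% and 5.21% of all genes. DESeq2 called 0 of the 2 genes it gave an adjusted p at baseline and 1 of 18 with the antibiotic, where it called 296 of 13559 and 87 of 14556 genes. These genes answer many other signals, so the list does not measure interleukin 1 activity by itself.

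The genes whose profile over the 17 libraries lay closest to each member were found by the root mean square difference of centred log2 levels among 11953 genes. For Il1a they were Clec4e, a myeloid C-type lectin (0.508), Il10, the anti-inflammatory cytokine (0.561), and Fcgr2b, the inhibitory Fc receptor (0.64). For Il1b they were the leukocyte gene Plek (0.568), Clec4e (0.686) and Clec4d (0.701). Il1r2 had the apoptosis inhibitor Bcl2a1d (0.582), the Fc receptor Fcgr3 (0.606) and Bcl2a1a (0.615), of which the Bcl2a1 copies are near-identical and their counts uncertain. Il1rn was closest to Slfn1 (0.359), Hilpda (0.373) and Batf (0.404), Il1rap to Arhgap23 (0.329), Nfkbiz (0.347) and Rbpj (0.35), and Il18 to Rhoc (0.246), Smagp (0.257) and Tex264 (0.279). Il1rl1 and Il33 had no gene closer than 0.882 and 0.678. With mitochondrially encoded genes left out of the scaling, all 3 nearest genes were kept for Il1a, Il1r1 and Il18, 2 of 3 for Il1b (Ccl4 taking the place of Clec4e), Il1r2, Il33 and Il1rl1, and 1 of 3 for Il1rn (Hilpda) and Il1rap (Nfkbiz). These distances share the libraries, their depth and their cell makeup and are descriptions only.

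Reads of some members may include those of antisense neighbours, since the strand setting of the counting is not given in the sources used here. Il1a shares 222 exon bases with Gm14023, which had 3519 counts over all libraries, Il1b shares 25 with Il1bos (993 counts), and Il1rap shares 552 with Gm20319 (4 counts).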

How the data were processed

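Bulk RNA-seq libraries were deposited as 3 tables of raw counts per NCBI gene number, 1 table per condition with both genotypes, and the values are the authors' counts, whole numbers without normalization. Per the submitters' processing notes, the tools named were CASAVA 1.8.2, FastQC, Trim Galore, STAR 2.5.4 and DESeq2, with build mm10; the counting program, annotation and strand setting are not given in the sources used here. Gene numbers were matched to symbols through RefSeq (25275 genes) and GENCODE (18), and 1886 numbers with 1.39% to 7.32% of counts stayed unnamed and in the fits.

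Counts were tested with edgeR 4.0.16 (R 4.3.3) by quasi-likelihood, after filterByExpr and TMM scaling, with Benjamini-Hochberg adjustment over all genes tested and a threshold of 0.05. MCJ effects were fitted within each table, and DSS, antibiotic and difference contrasts in 1 fit of 17 libraries. The SE is the log2 fold change divided by the square root of F. Alternatives were DESeq2 1.42.0, RLE scaling, no filter, mitochondrial genes left out, other sets of libraries, each library left out and, added later, mouse numbers as a block. The rule for named genes took all 9 members, up to 3 genes of each list with the smallest p, and the 3 nearest profiles over genes with a mean of at least 50 counts. Members and lists were chosen with earlier results of these data known. CPM used TMM factors over all 17 libraries, and depth limits use 3 counts.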

Additional observations from a re-analysis of the deposited data

How the results depend on the processing

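The library numbers are not shared between groups, but the mouse numbers in the titles recur in 2 comparisons, MCJ loss at baseline and DSS in MCJ-deficient libraries, with 2 shared numbers each. No label says that a shared number marks 1 mouse, and same-numbered libraries did not deviate together (correlations -0.056 and -0.052, and 0.001 and 0.036). With the mouse number as a replicate block in fits of the 2 groups alone, a setting chosen after the data were seen, edgeR called 0 genes for MCJ loss at baseline, where Il1b was at 0.58 and uncalled, and 1756 for DSS in MCJ-deficient libraries. Of 19 called member values, 9 stayed called whichever library was left out and 7 of those also under every other setting run, and 0 changed direction. Uncalled values were followed in comparisons of 2 groups, except Il1rl1 for DSS in WT. For differences of the MCJ effect they were followed only at an unadjusted p under 0.05. Of these 47 uncalled values, 9 changed direction when a library was left out. Those ranges (log2) were, for MCJ loss at baseline, -0.49 to 0.59 for Il1b and -0.63 to 0.054 for Il1rn, after DSS -0.54 to 0.074 for Il18 and -0.33 to 0.77 for Il33, and with the antibiotic -0.31 to 0.84 for Il1b, -0.33 to 1.29 for Il1rn and -1.48 to 0.23 for Il33. For the antibiotic, Il33 ranged from -0.21 to 0.58 in WT and from -1.74 to 0.065 in MCJ-deficient libraries. Single values within these ranges that changed direction were 0.15 for Il1b at baseline, -0.15 for Il1b with the antibiotic, and -0.15 and -0.02 for Il33 in WT.

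Counts of genes called over the whole tables depended on the setting. For MCJ loss at baseline, after DSS and with the antibiotic they were 0, 145 and 0, but 296, 361 and 87 by DESeq2, 9, 353 and 1 without the filter and 3, 1 and 8 in the fit of all 17 libraries. For DSS they were 414 in WT and 352 in MCJ-deficient libraries, but 1074 and 790 by DESeq2 and 42 and 1029 in fits of the 2 groups alone. For the antibiotic they were 748 and 294, but 1381 and 930 by DESeq2, and for MCJ-deficient libraries 802 in the fit of the 2 groups and 558 without the filter. The 2 differences of the MCJ effect gave 0 and 0, but 141 and 81 by DESeq2 and 16 and 36 without the filter. Leaving out a library gave 0 to 1, 20 to 203 and 0 to 6 genes for MCJ loss, 267 to 769 and 45 to 340 for DSS, 215 to 1313 and 12 to 634 for the antibiotic, and 0 to 41 and 0 to 29 for the differences. The log2 ratio of Il1r2 to Il1r1 in MCJ-deficient baseline libraries was -3.523 with 1 added to both counts. The cause of these changes was not tested. The median of all genes was 0.14 for DSS in WT and at most 0.08 in size for the other fits of MCJ loss, DSS and the antibiotic. At baseline the agonists rest on 9 to 78 counts a library, which limits any genotype difference there.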
